A study of Mus musculus with 6 samples.

Results

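The genes described here are 10 genes of haematopoietic stem and progenitor cells, Kit, Cd34, Procr, Hlf, Mecom, Meis1, Gata1, Gata2, Runx1 and Myb. They were chosen by name and not by their values, though with earlier results of these data known, out of the 37991 genes of a table of read counts per gene. RNA was sequenced from bone endothelial cells (BECs) of 12-week-old mice of the strain given as c57/Bl6, 3 females and 3 males, with no treatment, transgene or deletion given for either sex. The cells came from freshly isolated tibia by the labels, from tibiae and femurs by the study's methods, and were purified by their endomucin, a sialomucin on capillary and sinusoidal endothelium. The study's methods describe antibody-coated beads on a digested, red-cell-lysed marrow suspension and no removal of CD45+ cells at this step, and libraries made from the samples with the best RNA. Whether a library came from 1 animal or from pooled animals is not given in the sources used here, so the p-values measure only the spread between these samples.

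Haematopoietic stem cells reside in bone marrow close to the sinusoidal endothelium, and both lineages share much of their transcription, since stem cells arise in the embryo from haemogenic endothelium in a step that needs RUNX1. Kit and Cd34 are surface proteins of stem and progenitor cells, Procr encodes the endothelial protein C receptor that also marks stem cells, and Hlf, Mecom and Meis1 encode transcription factors of the most immature cells. Gata2 acts in stem cells, progenitors and endothelium, Gata1 in erythroid cells, megakaryocytes, mast cells and eosinophils, and Runx1 and Myb across the progenitors of several lineages. A transcript of one of these genes in a BEC library can therefore come from more than one kind of cell, and in bulk RNA fewer cells of a type cannot be told apart from less RNA per cell.

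The RefSeq table of regions before gene starts (GRCm38.p6) held 14 windows for the 10 genes, 2 each for Kit, Gata2, Mecom and Runx1 and 1 each for the others. Counts per gene add up the transcripts of all starts, so that for these genes the values below do not separate one start from another. The windows of Runx1 are shown because its starts differ most in base composition. The distal window, 250 bases long, had 45.6% G and C and 2 CpG dinucleotides, the proximal one 67.6% and 27. Both held 2 matches to CCAAT, which is in 33.8% of the 32851 windows of the table on either strand. In the stretches of 120 bases printed here, 5′ to 3′ on the minus strand of the chromosome, the capitals mark CCAAT or its reverse complement.
Runx1 distal, chr16:92826075-92826194: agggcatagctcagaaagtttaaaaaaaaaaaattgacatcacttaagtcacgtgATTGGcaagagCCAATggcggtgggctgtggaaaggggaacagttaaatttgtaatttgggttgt
Runx1 proximal, chr16:92697359-92697478: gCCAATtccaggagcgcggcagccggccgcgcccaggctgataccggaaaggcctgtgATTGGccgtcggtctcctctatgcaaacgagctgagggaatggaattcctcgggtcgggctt

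The letters that GATA factors prefer, searched as AGATAA and AGATAG and TGATAA and TGATAG on both strands, were in the windows of Cd34 and in both windows of Mecom, 3 of the 14 windows, and in 26.5% of all windows. The stretches of Cd34 and Mecom are shown because Gata1 and Gata2 are themselves among the 10 genes and because Cd34 had the smallest p of them. The letters that RUNX factors prefer, searched as TGTGGT and TGCGGT on both strands, were in 1 of the 14 windows, that of Meis1, and in 18.6% of all windows. A match here describes the letters of the window and not binding. The capitals mark the GATA letters or their reverse complement, Cd34 lies on the plus strand and Mecom on the minus strand.
Cd34, chr1:194938571-194938690: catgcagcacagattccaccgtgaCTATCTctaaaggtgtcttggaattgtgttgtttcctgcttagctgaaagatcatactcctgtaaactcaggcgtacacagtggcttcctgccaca
Mecom distal, chr3:30509760-30509879: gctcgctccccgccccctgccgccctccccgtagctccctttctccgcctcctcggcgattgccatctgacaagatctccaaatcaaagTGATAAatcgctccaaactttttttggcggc
Mecom proximal, chr3:30013205-30013324: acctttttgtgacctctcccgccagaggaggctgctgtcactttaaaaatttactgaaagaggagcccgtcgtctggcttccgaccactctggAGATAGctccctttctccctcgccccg

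Total counts lay between 47678806 and 58325745 per library, and 3 counts, the smallest level taken as visible in a library, corresponded to between 0.0477 and 0.0639 CPM, the counts scaled to library size with edgeR's TMM factors. Such a floor reflects counting error alone, as reads copied by PCR are not separate molecules. Transcripts of the Y chromosome and Xist followed the labelled sex in every library. Summed per length, the 18 endothelial markers reached 35.2 to 106 CPM per kilobase, against 849 to 1444 for 8 macrophage markers, 1453 to 1716 for 8 B cell markers and 14807 to 36001 for 11 neutrophil markers. Cdh5, the endothelial cadherin, lay between 6.50 and 32.6 CPM and Emcn, which encodes endomucin, between 3.09 and 10.5. The endothelial label therefore rests on markers that were present in all 6 libraries, at lower levels per length than those of these 3 kinds of blood cell.

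All 10 genes were detected in all 6 libraries and passed edgeR's filter on low counts, from 54 counts for Procr in male replicate 1 to 5428 for Myb in female replicate 1. To compare levels between genes, CPM was divided by the length of the gene's exons in GENCODE M39. On this scale Myb, a factor of proliferating progenitors, was highest with 7.36 ± 2.54 CPM per kilobase (SD, n = 6), followed by Gata1 with 5.11 ± 1.36 (SD, n = 6) and Runx1 with 3.96 ± 0.489 (SD, n = 6). These 3 neighbours overlapped in their ranges, while Runx1 was above Kit in 6 of 6 libraries without overlap. Kit followed with 1.53 ± 0.334 CPM per kilobase (SD, n = 6), then Cd34 with 1.17 ± 0.466 and Gata2 with 1.11 ± 0.138. Hlf had 0.900 ± 0.425 CPM per kilobase (SD, n = 6), Procr 0.726 ± 0.202 and Meis1 0.489 ± 0.181, and each of the neighbours from Kit down to Meis1 overlapped with the next. Mecom was lowest with 0.169 ± 0.0185 CPM per kilobase (SD, n = 6), below Meis1 in all 6 libraries and without overlap. The level of Myb per length was above that of 72.8% of the tested genes with a known length, that of Mecom above 9.48%. With the longest transcript as the length, Gata1 and Runx1 exchanged places and the order was otherwise kept, while the values of 8 of the 10 genes moved by more than their SD, for example to 17.4 CPM per kilobase for Myb, 2.33 for Cd34 and 0.363 for Mecom.

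**Figure D1:**
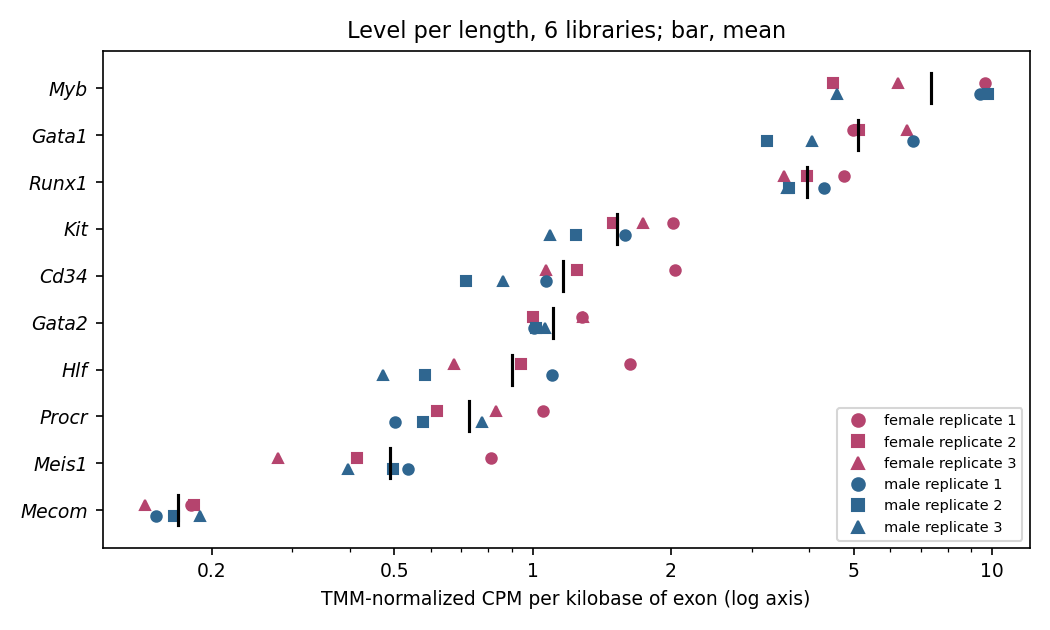
TMM-normalized CPM per kilobase of exon (horizontal log axis) of the 10 genes, 1 point for each of the 6 libraries and a bar for the mean. Myb, Gata1 and Runx1 lie above the other 7 genes without overlap, and Mecom, at 0.169 on average, lies below all of them.

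The sexes were then compared, which asks whether the libraries of young adult males and females differ in these transcripts, whichever cells carry them. Of the 10 genes, 0 passed edgeR's quasi-likelihood test at a Benjamini-Hochberg adjusted p below 0.05, beside 8 (0.0411%) of the 19480 genes tested, 0.0154% being lower and 0.0257% higher in males. DESeq2's Wald test called 0 of the 10 as well, beside 1.99% of the genes it could adjust. At an unadjusted p under 0.05 in edgeR, 2 of the 10 differed, Cd34 and Kit, both lower in males, beside 9.79% of all genes tested, 4.76% lower and 5.03% higher. The estimate was below 0, that is lower in males, for 9 of the 10 genes with a median log2 fold change of -0.23, against 50.2% of all genes tested with a median of -0.0012. This count leaned on female replicate 1, without which Mecom (0.059), Meis1 (0.47) and Runx1 (0.045) also had estimates above 0. Female and male libraries were fully separated for 1 of the 10 genes, Cd34, and for 14.5% of all genes tested, in 7.29% with all males lower and in 7.25% with all males higher.

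Cd34, a sialomucin of progenitors and of endothelium, was measured at 24.4, 14.9 and 12.8 CPM in female replicates 1, 2 and 3 and at 12.8, 8.57 and 10.3 CPM in male replicates 1, 2 and 3. Female replicate 1 stood above the other 5 libraries, and female replicate 3 and male replicate 1 were equal to 3 digits, with the female just above. The means were 17.4 ± 6.19 CPM (SD, n = 3) in the females against 10.6 ± 2.12 (SD, n = 3) in the males. The log2 fold change of males over females was -0.72 (95% interval -1.28 to -0.16, edgeR, adjusted p = 0.379). Without female replicate 1 it was -0.38 (edgeR, adjusted p = 0.529).

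Kit, the receptor for stem cell factor on progenitors and mast cells, had 19.1, 14.2 and 16.4 CPM in the females and 15.1, 11.8 and 10.3 in the males. Male replicate 1 lay between the female values, so the sexes overlapped. The means were 16.6 ± 2.46 CPM (SD, n = 3) and 12.4 ± 2.43 (SD, n = 3), a log2 fold change of -0.42 (95% interval -0.83 to -0.0070, edgeR, adjusted p = 0.499). Procr, the protein C receptor, was the rarest of the 10 genes by CPM with 2.15, 1.27 and 1.70 CPM in females and 1.03, 1.18 and 1.58 in males. Its log2 fold change was -0.44 with a 95% interval from -1.20 to 0.33 (edgeR, adjusted p = 0.726), which includes both a fold of 0.434 and one of 1.25.

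**Figure D2:**
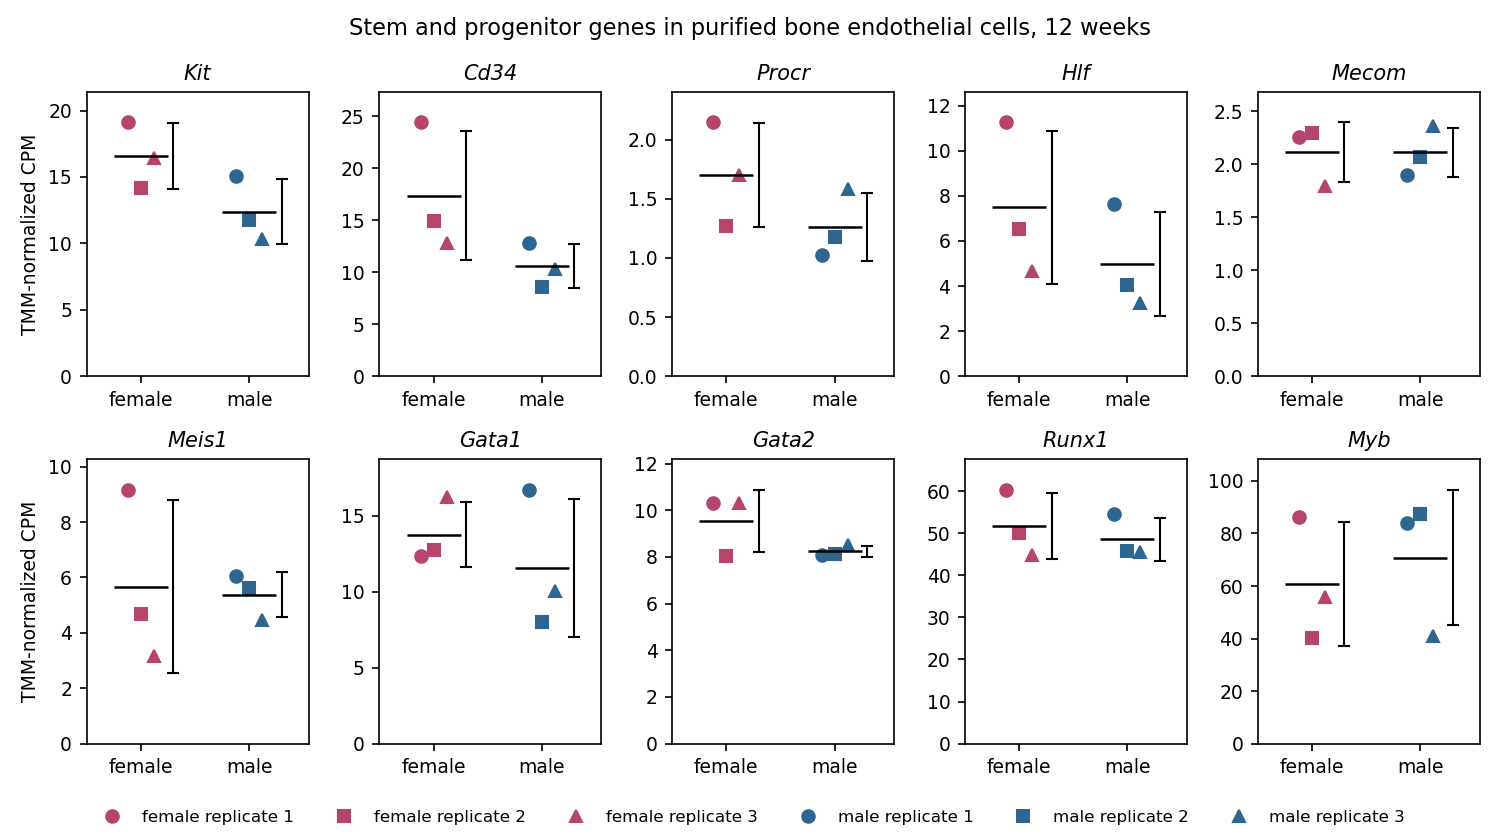
TMM-normalized CPM of each gene (vertical axes from 0) in 3 female and 3 male libraries, with the mean as a bar and ± 1 SD (n = 3) as an error bar. Female and male points overlap in every panel but that of Cd34, where female replicate 3 and male replicate 1 are both at 12.8 CPM.

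Among the factors of immature cells, Hlf, a bZIP factor largely restricted to stem cells within blood, had 11.3, 6.55 and 4.66 CPM in females and 7.63, 4.04 and 3.27 in males. The highest library was female replicate 1 and the lowest male replicate 3, with the sexes overlapping. The log2 fold change was -0.59 (95% interval -1.43 to 0.25, edgeR, adjusted p = 0.654). Mecom, which encodes the zinc finger factor EVI1 and its longer form, lay at 2.26, 2.29 and 1.79 CPM in females and 1.90, 2.07 and 2.36 in males. The means were nearly equal, 2.11 ± 0.280 CPM (SD, n = 3) and 2.11 ± 0.234 (SD, n = 3), and the 95% interval of the log2 fold change ran from -0.62 to 0.62. Meis1, a partner of HOX proteins, had 9.16, 4.69 and 3.15 CPM in females and 6.06, 5.62 and 4.47 in males, so that the males lay inside the female range. Its log2 fold change was -0.08 (95% interval -0.86 to 0.70, edgeR, adjusted p = 0.963) and turned to 0.47 without female replicate 1 (edgeR, adjusted p = 0.574).

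The GATA factors showed the following values. Gata1, on the X chromosome, had 12.3, 12.8 and 16.2 CPM in females and 16.7, 8.02 and 10.1 in males. Male replicate 1 was the highest library and male replicate 2 the lowest, and the log2 fold change was -0.25 (95% interval -0.82 to 0.32, edgeR, adjusted p = 0.797). It was -0.61 without male replicate 1 and -0.041 without male replicate 2. Gata2 had 10.3, 8.02 and 10.3 CPM in females and 8.07, 8.14 and 8.52 in males, the smallest relative range of the 10 genes, with the highest library 1.29 times the lowest. Its log2 fold change was -0.21 (95% interval -0.61 to 0.18, edgeR, adjusted p = 0.744).

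Runx1, the core-binding factor subunit needed to make stem cells, had 60.3, 50.1 and 44.7 CPM in females and 54.5, 45.8 and 45.4 in males. The sexes overlapped, and with a log2 fold change of -0.09 its 95% interval from -0.40 to 0.22 (edgeR, adjusted p = 0.870) was the narrowest of the 10 genes, allowing folds between 0.758 and 1.16. Myb had 86.3, 40.3 and 55.7 CPM in females and 83.9, 87.3 and 41.1 in males. Its libraries fell apart within each sex, female replicate 1 and male replicates 1 and 2 being high and female replicate 2 and male replicate 3 low. Myb was the only one of the 10 genes with an estimate above 0, a log2 fold change of 0.22 (95% interval -0.54 to 0.98, edgeR, adjusted p = 0.870).

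**Figure D3:**
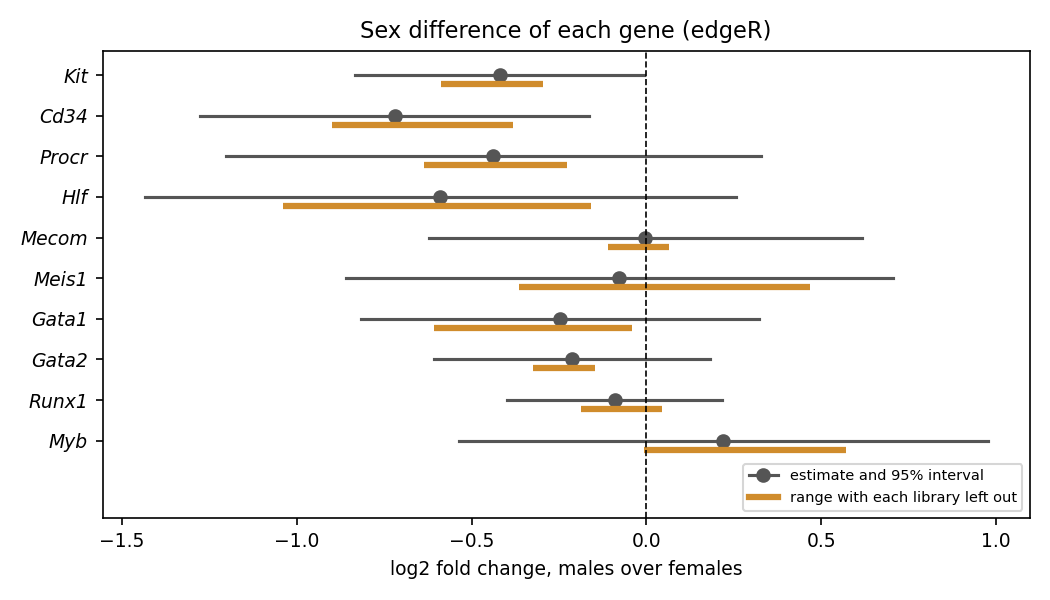
Log2 fold change of males over females for each gene from edgeR, with its 95% interval (thin line) and the range of the estimate when each of the 6 libraries is left out in turn (thick line). The intervals of Cd34 and Kit lie below 0 and those of the other 8 genes include 0, and none of the 10 genes passes an adjusted p under 0.05.

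Across libraries the 10 genes did not vary alike. Female replicate 1 was the highest library for 6 of the 10 genes, Kit, Cd34, Procr, Hlf, Meis1 and Runx1, where it was the highest for 14.5% of all genes tested. Without this library the log2 fold change moved to -0.30 for Kit, -0.23 for Procr, -0.16 for Hlf and 0.04 for Runx1. For Hlf it moved the other way, to -1.04, without male replicate 1. The highest library was 3.45 times the lowest for Hlf, 2.91 times for Meis1, 2.85 times for Cd34 and 2.17 times for Myb, but 1.32 times for Mecom and 1.35 times for Runx1. Over the 6 libraries, which share their depth and cell makeup among all genes, the log2 level of Hlf followed that of Runx1 with Pearson's r of 0.953 (Spearman's rho 0.829) and that of Cd34 with r of 0.884 (rho 0.771). Procr followed Gata2 with r of 0.876 (rho 0.771), while Gata1 and Gata2 had r of 0.322 (rho -0.0857) and Gata1 and Mecom r of -0.569 (rho -0.543). These values describe 6 points each.

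**Figure D4:**
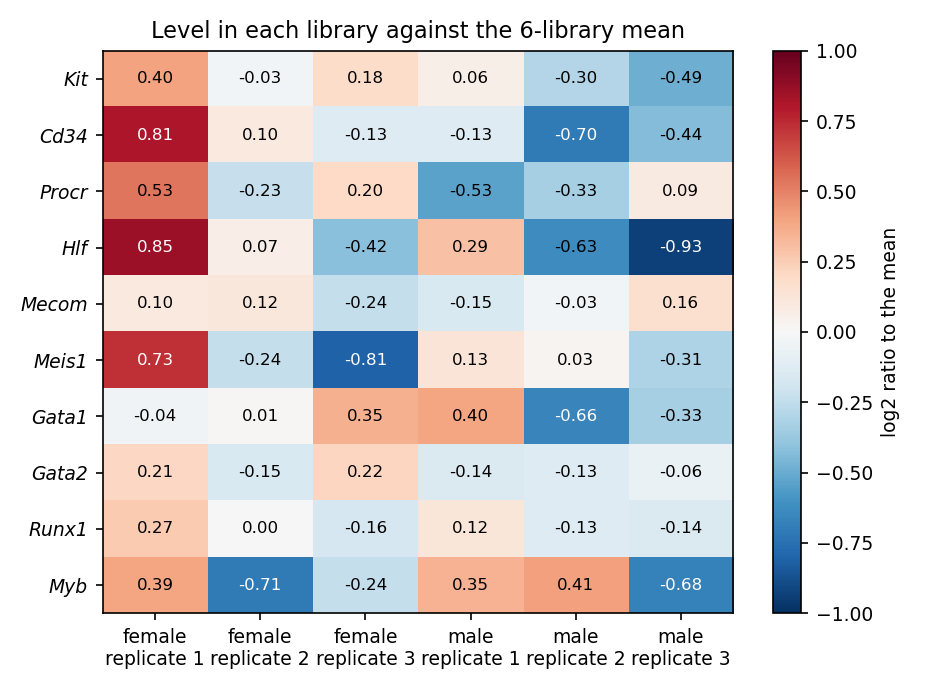
Log2 ratio of the CPM of each gene in each library to its mean over the 6 libraries (columns, libraries; rows, genes; colour and printed value, the ratio). Female replicate 1 is above the mean for 9 of the 10 genes, by 0.85 for Hlf and 0.81 for Cd34, while Mecom, Gata2 and Runx1 stay within 0.27 of their means in every library.

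The other genes of the stem and progenitor programme were taken from lists of 46 genes, of which 44 were tested. Of these, 0 passed in edgeR (adjusted p below 0.05), while 12 (27.3%) had an unadjusted p under 0.05, 5 higher and 7 lower in males, beside 9.79% of all genes tested, and DESeq2's Wald test called 3, beside 1.99% of the genes it could adjust. Their median log2 fold change was -0.07. Among 8 receptors and surface proteins, 5 had estimates below 0 and the median was -0.42. The smallest p belonged to Tek, the angiopoietin receptor of endothelium and stem cells, with 9.38 ± 3.59 CPM (SD, n = 3) in the females against 3.62 ± 1.47 (SD, n = 3) in the males, which gave -1.37 ± 0.37 (standard error) as log2 fold change (adjusted p = 0.253 in edgeR and 0.00788 in DESeq2). Esam, an adhesion molecule of endothelium and stem cells, gave -1.15 ± 0.34 (standard error) with overlapping sexes (adjusted p = 0.288 in edgeR and 0.0230 in DESeq2). Cxcr4, the receptor for CXCL12 and the most abundant of this list per length, had 156 ± 11.1 CPM (SD, n = 3) in the females against 186 ± 6.15 (SD, n = 3) in the males, without overlap (log2 fold change 0.26, edgeR, adjusted p = 0.499).

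In a list of 16 genes, most of them transcriptional regulators, 12 had estimates below 0 with a median log2 fold change of -0.14. Fgd5, a gene of stem cells and endothelium, had a log2 fold change of -0.81 (edgeR, adjusted p = 0.369), and the sexes did not overlap. Lmo2, a bridging protein of the GATA complexes, was the most abundant per length at 47.1 CPM per kilobase, with a log2 fold change of -0.17 (edgeR, adjusted p = 0.668). The 6 cofactors lay close to 0, with a median of 0.01 and values from -0.08 for Ldb1 to 0.08 for Ep300, and Cbfb, the partner of RUNX1, had 118 ± 4.21 CPM (SD, n = 3) in the females against 118 ± 6.09 (SD, n = 3) in the males.

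Among the ligands, Kitl, the stem cell factor bound by KIT, had 70.6 ± 23.7 CPM (SD, n = 3) in the females against 47.2 ± 8.05 (SD, n = 3) in the males, with overlap (log2 fold change -0.58, edgeR, adjusted p = 0.460). Cxcl12 was the most abundant of them at 197 CPM per kilobase, with a log2 fold change of -0.43 (edgeR, adjusted p = 0.708). Thpo, a cytokine made mainly in the liver, had 0 counts in all 6 libraries, which allows up to 0.0477 to 0.0639 CPM. Of 12 genes of lineage commitment, 8 had estimates above 0. Nfe2, a factor of erythroid cells and megakaryocytes, had 81.4 ± 0.556 CPM (SD, n = 3) in the females against 123 ± 12.4 (SD, n = 3) in the males without overlap, or 0.59 ± 0.11 (standard error) as log2 fold change (adjusted p = 0.0974 in edgeR and 0.00197 in DESeq2). Spi1, which encodes the myeloid factor PU.1, had a log2 fold change of 0.36 (edgeR, adjusted p = 0.441), and Elane, a granule protease of promyelocytes and the most abundant of this list per length, one of 0.17 (edgeR, adjusted p = 0.904).

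Markers of other cells that transcribe some of the 10 genes were summed in each library. The endothelial markers, 18 of 18 tested, summed to between 426 and 599 CPM in females and 254 to 388 in males, and the neutrophil markers, 11 of 11 tested, to between 18867 and 23092 and between 32345 and 44045. The macrophage markers, 8 of 8 tested, summed to between 4471 and 4867 CPM in females and 2863 to 3884 in males. None of these 3 sums overlapped between the sexes (exact permutation test, two-sided, p = 0.1 for each, the smallest that 3 against 3 allows). Stromal markers (373 to 703 and 285 to 449 CPM) and megakaryocyte markers (69.6 to 223 and 47.2 to 126 CPM) did overlap. Gene by gene at an adjusted p below 0.05, edgeR called 0 of the neutrophil, endothelial and macrophage markers. DESeq2's Wald test called 9 of the 11 neutrophil, 5 of the 18 endothelial and 2 of the 8 macrophage markers, beside 1.99% of the genes it could adjust. Erythroid markers, with 4 globin genes holding nearly all of the sum, added up to 12184 to 17504 CPM in females and 18516 to 27216 in males, and without the globins to 365 to 557 and 365 to 730. The part of these cells in the values of the 10 genes was not tested.

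Mast cells carry KIT, GATA1 and GATA2. The mast cell and basophil markers, 6 of 10 tested, summed to 130 to 160 CPM in females and 163 to 225 in males, without overlap. Hdc, the histidine decarboxylase of these and other myeloid cells, had 61.3 ± 4.79 CPM (SD, n = 3) in the females against 99.3 ± 30.3 (SD, n = 3) in the males, and without it the sums overlapped, at 73.7 to 98.0 and 79.4 to 90.5 CPM. The 4 below the filter were mast cell proteases, with at most 7 counts of Mcpt4, 15 of Cma1, 17 of Tpsb2 and 0 of Tpsab1 in any library. Cpa3, a carboxypeptidase of mast cells and also of basophils and their progenitors, was lower in all males, at 5.18 to 5.79 CPM in females and 3.90 to 4.06 in males. Of the 6 tested markers, 4 had estimates above 0 and 2 below. The sexes did not overlap for 3 of the 6, 2 with all males higher and 1 with all males lower, beside 14.5% of all genes tested. The receptor subunits Ms4a2 and Fcer1a were present at 3.42 to 4.91 and 3.01 to 4.79 CPM and the basophil proteases Mcpt8 at 24.7 to 34.3 and Prss34 at 35.8 to 56.9. Eosinophil markers, 8 of 8 tested, summed to 382 to 444 CPM in females and 241 to 352 in males, without overlap. B cell markers summed to 2860 to 3224 and 2875 to 3360 CPM and cell cycle markers to 361 to 529 and 391 to 528, both with overlap. By Pearson's r, the log2 level of Gata2 was closest to the stromal sum (r 0.900, rho 0.657), by Spearman's rho to the megakaryocyte sum (r 0.806, rho 0.771). The level of Procr followed the megakaryocyte sum (r 0.830, rho 0.829) and the endothelial sum (r 0.811, rho 0.829). The B cell sum was the closest by r for Runx1 (r 0.747, rho 0.886), Hlf (r 0.628, rho 0.714) and Meis1 (r 0.546, rho 0.771). Without the 2 libraries farthest from the median of that sum, r was 0.585 for Runx1, 0.607 for Hlf and 0.364 for Meis1. Myb was closest to the cell cycle sum (r 0.645, rho 0.486) and had r of 0.017 with the B cell sum. With a list's mean log2 level in place of the sum, Myb was closest to the B cell list (r 0.764), ahead of the cell cycle list (r 0.508). Gata1 had r of 0.231 (rho 0.143) with the full erythroid sum and 0.635 (rho 0.486) with the stromal sum, and r of 0.671 (rho 0.657) with the erythroid sum without globins, which was added after seeing the data. Cd34 followed the endothelial sum with r of 0.731 (rho 0.771) and ran against the neutrophil sum with r of -0.88 (rho -0.94), as Kit did with r of -0.87 (rho -0.89), while Kit was closest to the stromal sum (r 0.741, rho 0.829). With the mast cell and basophil sum, r was -0.89 (rho -0.94) for Cd34, -0.65 (rho -0.6) for Kit, -0.57 (rho -0.2) for Gata1 and -0.54 (rho -0.26) for Gata2. Leaving out the 2 libraries farthest from the median of that sum gave -0.76, -0.23, 0.11 and 0.12 in the same order. Without the 2 libraries farthest from the median, r was 0.287 for Gata2 with the stromal sum and 0.774 with the megakaryocyte sum, 0.695 for Procr with the megakaryocyte sum, 0.475 for Procr with the endothelial sum, 0.767 for Cd34 with the endothelial sum, 0.187 for Kit with the stromal sum and -0.69 for Gata1 with the erythroid sum without globins, so that the relations of Gata2 and Kit to the stromal sum and the last one of Gata1 rested on those libraries. Against the neutrophil sum, from which male replicates 2 and 3 were then left out, r was -0.70 for Cd34 and -0.66 for Kit. Both sexes were pooled in all these r. Cd34 and the endothelial, neutrophil and mast cell and basophil sums did not overlap between the sexes. A difference between the sexes therefore enters their r, which was not separated from the spread within a sex.

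**Figure D5:**
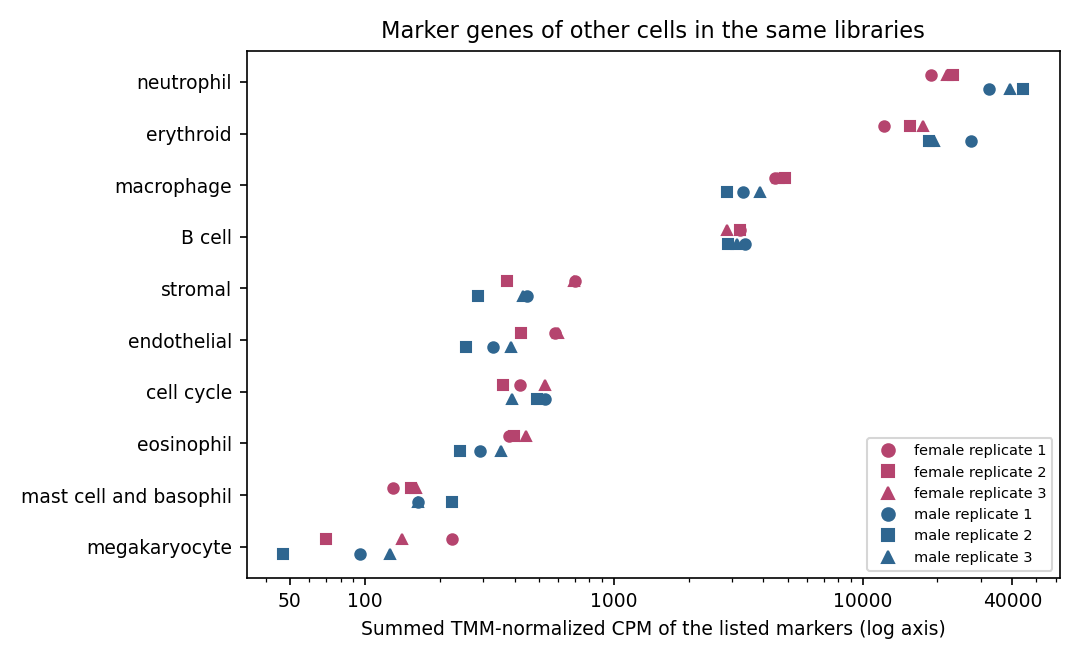
Summed TMM-normalized CPM of each list of marker genes (horizontal log axis) in the 6 libraries. Neutrophil sums lie between 18867 and 44045 CPM with all males above all females, and endothelial sums between 254 and 599 CPM with all males below all females.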

How the data were processed

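The authors deposited whole-number read counts per Ensembl gene for 6 libraries, without normalization or pooling. The study's methods name STAR, GRCm39 and a total RNA kit, whereas the labels name a poly(A) library and the submitters' processing notes TopHat2 2.0.11, featureCounts and the builds mm9 and NCBIM37. No identifier in the table is numbered above 93789, while 47216 of the 78289 genes of GENCODE M39 are, so gene positions of GRCm39 are not printed. Exon lengths and overlaps were still taken from GENCODE M39 and may differ from those of the annotation that was counted. The annotation release and the strand setting are not given in the sources used here. In GENCODE M39, exons of 8 of the 10 genes overlap an antisense gene and those of Meis1 also a gene on its own strand, so reads could be shared. For 3 of them an overlapping gene is among the genes counted here. Symbols and exon lengths came from GENCODE M39, which matched 31073 of the 37991 identifiers, with 96.2% of the counts.

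Males were compared with females in edgeR 4.0.16 (R 4.3.3) with TMM scaling, filterByExpr grouped by sex, robust dispersion and quasi-likelihood estimates, and p-values adjusted after Benjamini-Hochberg across 19480 genes. A standard error was the estimate over the root of its F statistic, and 95% intervals use the test's degrees of freedom. Correlations used log2 of CPM plus 0.5. The lowest chi-square per degree of freedom between libraries was 31.5, so no pair was counted as 1 sample. The fits were tested on simulated data.

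The 10 genes and the lists were chosen with earlier results of these data known. Named genes were the 10, and of each programme list the 2 with the smallest unadjusted p, the most abundant per length and any under an adjusted p of 0.05, except that 1 gene is not reported here; the marker lists are given as sums, with single markers as checks. For Cd34 and Myb, the gene most alike was sought among those with a mean of at least 5 CPM. Alternatives were DESeq2's size factors, total counts, no filter, 10 counts in every library, DESeq2 1.42.0, the replicate number as a block, genes over 1% of a library left out, no robust estimation, each library left out, the longest transcript as length, a pseudocount of 0.1 CPM, and correlations without 2 libraries. A list's mean log2 level, an erythroid sum without globins and a mast cell and basophil sum without Hdc were added after seeing the data.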

Additional observations from a re-analysis of the deposited data

How the results depend on the processing

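None of the 10 genes passed an adjusted p under 0.05 under any of the 14 alternatives, the smallest adjusted p being 0.0554 for Cd34 with the replicate block. The number of all genes called moved from 8 to 14 with total counts alone, to 98 with no filter on low counts and to 354 with DESeq2's Wald test, and lay between 5 (without female replicate 2) and 96 (without male replicate 3) with each library left out. The number of programme genes called moved from 0 to 3 with DESeq2's Wald test. Same-numbered libraries correlated by 0.194, 0.0402 and 0.298 in their deviations from the mean of their sex, and 5 of 6 libraries were closest to the library of their own number. The labels name no shared animal, litter or day, and pairing was taken only from an r over 0.1 in every pair, which number 2 missed, so the fit without the block was kept. With the replicate block, 428 of all genes, 3 programme genes and 0 of the 10 genes were called, and the estimate for Meis1 turned to 0.045.

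The sign of the smallest estimates turned under some settings. Mecom moved to 0.0017 with DESeq2's size factors, 0.0010 with at least 10 counts in every library and 0.0085 without genes over 1% of a library. Cbfb, at -0.00053, moved to 0.0037, 0.0041 and 0.010 under the same settings and to 0.0016 with DESeq2's Wald test. With each library left out, the log2 fold change lay between -0.11 and 0.066 for Mecom, between -0.37 and 0.47 for Meis1, between -0.19 and 0.045 for Runx1, between -0.0063 and 0.57 for Myb, between -0.042 and 0.032 for Cbfb, between -0.12 and 0.54 for Elane, between -0.028 and 0.17 for Ep300 and between -0.22 and 0.032 for Ldb1. The other 6 of the 10 genes stayed below 0 under all 14 alternatives, Cd34 between -0.90 and -0.38 and Kit between -0.59 and -0.30. The closest marker list of Mecom, that of B cells (r 0.341), gave r of -0.95 without the 2 farthest libraries and -0.26 with mean log2 levels, and Gata1 with the erythroid list without globins gave -0.69 without the 2 farthest. The cause of these changes was not tested. With 3 libraries a sex, the 95% intervals of the 10 genes reach down to a fold of 0.758 for Runx1, the best determined, and of 0.370 for Hlf.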

Other observations

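Of all genes with a mean of at least 5 CPM, the one whose log2 level was most like that of Cd34 over the 6 libraries was Cep68, with Pearson's r of 0.995, and 30 of the 12258 genes compared had an r above 0.95. For Myb it was Setd7 with r of 0.997, and 72 genes had an r above 0.95. These were the highest values of a search over all these genes and describe 6 points each.

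The megakaryocyte markers were highest in female replicate 1, at 223 CPM summed, against 69.6 and 141 CPM in the other females.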
